A study of Homo sapiens with 2 samples.

Results

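The genes examined here encode the contractile apparatus of smooth muscle and of myofibroblasts, the contractile form of the fibroblast: ACTA2, TAGLN, CNN1, MYH11, MYL9, MYLK, TPM1, TPM2, LMOD1 and DES. They were measured in MRC-5 cells, an established fibroblast line from human fetal lung, after transfection with control siRNA or with siRNA against periostin, a matricellular protein encoded by POSTN. The 10 genes are part of the 21743 genes that could be named on the array through a RefSeq accession, and all their 18 probes were used. They were chosen by name, but with the difference between periostin siRNA and control siRNA already known for this array pair, so the values below are descriptions and no test was applied to them.

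RNA was taken after 48 h with 10 nM periostin siRNA, whereas no dose or time is given for the culture with control siRNA on the array. The study compared both conditions to find the genes that depend on periostin in lung fibroblasts, with 1 single-colour Agilent array for each. The arrays shared a slide and a scan, and the cultures were of the same line. Without a replicate culture, no difference below has a replicate check, and the number of arrays limits the precision. The signal is the background-subtracted fluorescence of a spot, scaled so that the 75th percentile of all spots is 377 on both arrays. The log2 ratio is that of periostin siRNA over control siRNA, and its error is the SD over spots for a probe printed 10 times or, for a probe printed once, the error that the scanner software propagates for the spot. Neither error covers the difference between cultures.

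In smooth muscle, force is made by myosin filaments that pull on actin filaments once the regulatory light chain of myosin has been phosphorylated. Fibroblasts that turn into myofibroblasts in wounds and in scarred lung take up part of this machinery, and alpha smooth muscle actin in stress fibers is the usual mark of that state. Most of its genes carry CArG boxes, the A/T-rich sites bound by serum response factor, which works with myocardin and the myocardin-related transcription factors. TEAD factors, which bind the MCAT element CATTCC, act on several of the same promoters.

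Promoters are shown first for the genes in which these elements were found, so that they can be set beside the signals. RefSeq promoter entries on GRCh38.p14 were matched for 6 of the 10 genes, in 8 entries, and the 250 bases before each start were searched on both strands. TAGLN, MYH11, MYL9 and DES were not matched. A full CArG box was found in 1 of the 6 genes, MYLK. That was 1 of the 8 entries, or 12.5%, compared with 1.16% of all 35116 promoter entries. Stretches that differ from the box at 1 position were found in ACTA2 and LMOD1. A full box or a stretch with 1 letter off was thus found in 3 of the 6 genes. By entries this was 3 of 8, or 37.5%, compared with 16.8% of all entries. CATTCC was found in ACTA2 and LMOD1, in 2 of the 8 entries, or 25%, compared with 11.9% of all entries. No match to any of the 3 patterns was found in these windows of CNN1, TPM1 or TPM2.

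In the sequences below, written 5′ to 3′ on the strand of the gene and ending just before the start, capitals mark the CArG box or the stretch with 1 letter off. ACTA2 is shown with the second of its 2 entries, chr10:88952774-88953023 on the minus strand, whose marked stretches begin 121 and 71 bases before the start. The paired boxes of this smooth muscle actin promoter are known for such a deviating letter. The MYLK entry, chr3:123620549-123620798 on the minus strand, belongs to a start that lies 96.2% of the way along the gene, and its box begins 94 bases before that start. MYLK is known to have a promoter near its far end, from which the short product telokin is made. LMOD1, at chr1:201946549-201946798 on the minus strand, has stretches with 1 letter off at 185 and 160 bases, and CATTCC on the opposite strand at 126, as ACTA2 does at 183. ACTG2, which encodes the gamma actin of smooth muscle and is not among the 10 genes, is added as a smooth muscle actin with 2 full boxes, at 110 and 73 bases before the start in chr2:73892758-73893007 on the plus strand, and was chosen after its signals were seen. A full box was also found for the actins ACTG1, ACTC1 and ACTA1, at 94, 109 and 97 bases, of which ACTG1 had a log2 ratio of 0.04 and the other two were not well above background on either array. MYLK, with the 1 full box among the 6 genes that were matched, had a ratio of 0.30. Whether its probe reads the transcript of the start next to that box was not examined.
ACTA2: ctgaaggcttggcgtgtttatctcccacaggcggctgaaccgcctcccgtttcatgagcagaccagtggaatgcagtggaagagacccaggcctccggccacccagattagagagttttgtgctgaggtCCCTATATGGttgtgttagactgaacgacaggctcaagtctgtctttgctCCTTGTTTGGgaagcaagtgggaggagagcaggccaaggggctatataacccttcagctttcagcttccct
MYLK: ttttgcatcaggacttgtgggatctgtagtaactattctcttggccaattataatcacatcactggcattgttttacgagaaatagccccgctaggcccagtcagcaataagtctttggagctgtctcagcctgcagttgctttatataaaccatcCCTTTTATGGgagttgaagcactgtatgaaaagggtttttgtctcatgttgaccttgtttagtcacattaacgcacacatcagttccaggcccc
LMOD1: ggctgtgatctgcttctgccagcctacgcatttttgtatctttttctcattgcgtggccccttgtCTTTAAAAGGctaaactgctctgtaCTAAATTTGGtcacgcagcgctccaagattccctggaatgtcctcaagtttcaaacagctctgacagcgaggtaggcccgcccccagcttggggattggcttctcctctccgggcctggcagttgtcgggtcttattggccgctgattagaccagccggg
ACTG2: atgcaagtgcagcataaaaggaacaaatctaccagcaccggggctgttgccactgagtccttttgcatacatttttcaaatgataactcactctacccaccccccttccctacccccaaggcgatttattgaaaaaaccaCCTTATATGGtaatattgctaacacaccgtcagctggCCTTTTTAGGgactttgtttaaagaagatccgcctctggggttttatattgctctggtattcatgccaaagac
A match to these letters describes the sequence and is not a measured binding site.

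The signal of most of the contractile genes was higher with periostin siRNA. Of the 10 genes, 9 were measured, which means that the brightest probe was well above background on at least 1 array, and MYH11 was not. All 9 had a log2 ratio above 0, from 0.19 for DES to 2.47 for LMOD1, where 54.5% of the 16052 measured genes of the array lay above 0. The median over the 9 was 1.08, compared with 0.06 over all measured genes. LMOD1 was the 1 gene that was higher by more than 3-fold, the threshold the study used, as were 3.37% of all measured genes. None of the 9 was lower by more than 3-fold, compared with 2.75% of all measured genes. At 2-fold, ACTA2, TAGLN, CNN1, MYL9 and LMOD1 were higher and none was lower, where 7.97% of all measured genes were higher and 6.42% were lower. The genes nearest to the 3-fold threshold were LMOD1 at 5.55-fold and CNN1 at 2.82-fold, and those nearest to 2-fold were MYL9 at 2.11-fold and TPM2 at 1.54-fold. In RNA of a whole culture, a higher signal in each cell and a larger number of cells with that signal cannot be told apart.

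**Figure D1:**
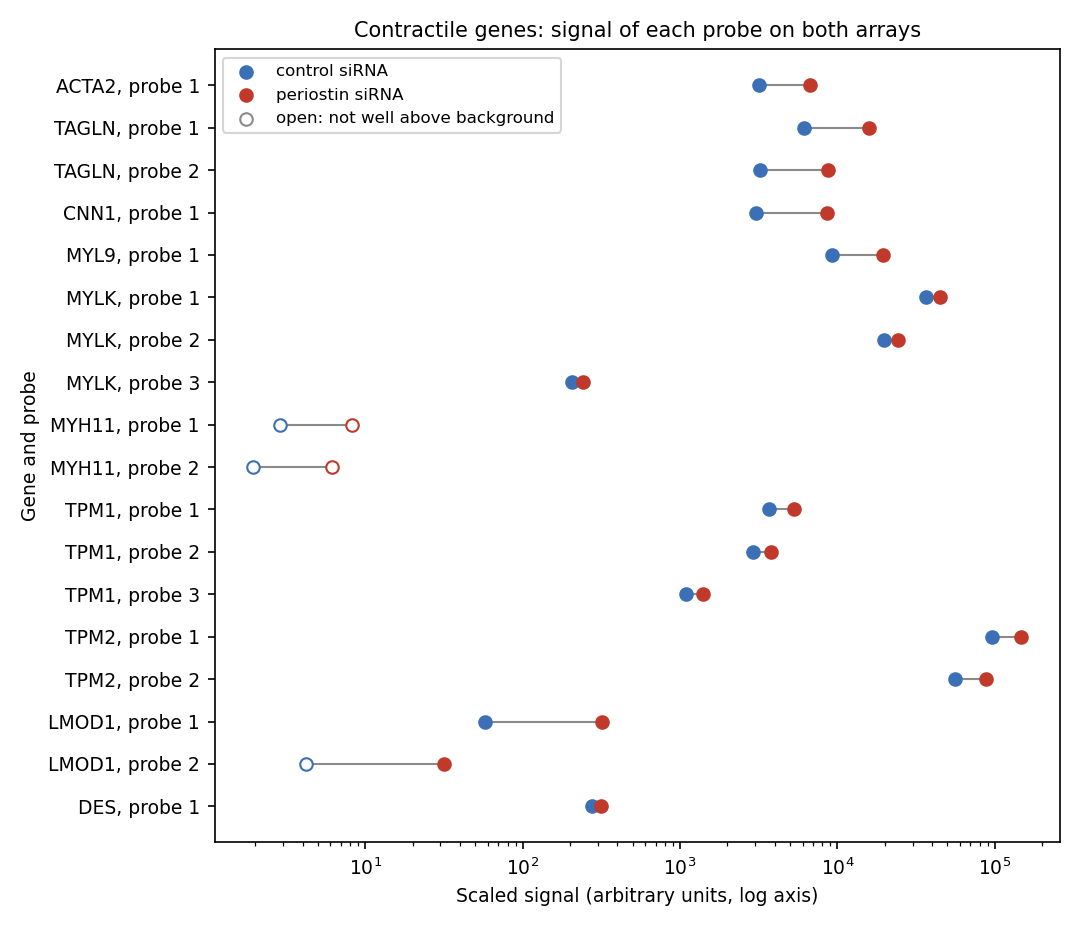
Scaled signal of all 18 probes of the 10 contractile genes with control siRNA (blue) and periostin siRNA (red), on a log axis, with open circles for a spot that was not well above background. The red point lies to the right of the blue point in every row, by the widest span in LMOD1 among genes that were measured, and both MYH11 probes are open on both arrays.

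ACTA2 encodes alpha smooth muscle actin, the thin filament protein by which myofibroblasts are usually recognised. Its single probe (NM_001613) had a signal of 3172 with control siRNA and 6701 with periostin siRNA. It was well above background on both arrays, and the signal with periostin siRNA was 2.11-fold that with control siRNA. The log2 ratio was 1.08 with a propagated error of 0.20, and 1125 of the 16052 measured genes had a higher ratio.

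The actin-binding proteins TAGLN and CNN1 gave higher ratios than ACTA2. TAGLN encodes transgelin, or SM22, which bundles actin filaments and is an early marker of smooth muscle. Its brighter probe (NM_001001522) had a signal of 15866 with periostin siRNA against 6142 with control siRNA, and its dimmer probe had 8701 against 3232. Both probes were well above background on both arrays, and their log2 ratios of 1.37 and 1.43 differed by 0.06, less than the error of either. CNN1 encodes calponin, which binds actin and slows the myosin ATPase. The single CNN1 probe (NM_001299) read 3031 with control siRNA and 8556 with periostin siRNA. The log2 ratio was 1.50 with an error of 0.20. That was 2.82-fold, just outside the threshold of 3-fold, and 624 measured genes had a higher ratio.

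The 3 genes of the myosin motor and its kinase differed widely. MYL9 encodes the regulatory light chain of smooth muscle myosin, whose phosphorylation starts contraction. Its signal (NM_181526) was 19333 with periostin siRNA against 9176 with control siRNA, a log2 ratio of 1.08 with an error of 0.20. MYLK encodes the kinase that phosphorylates this light chain. Its 3 probes had signals of 36382 and 44870, of 19900 and 24390, and of 206 and 240, with control siRNA and periostin siRNA in that order, and log2 ratios of 0.30, 0.29 and 0.22. These ratios differed among themselves by at most 0.08, and the error of each was 0.20. The third probe is named for another transcript (NM_053027) than the first and second (NM_053025). Which of the probes, if any, reads the telokin transcript was not examined, since probe sequences were not used here.

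MYH11 encodes the heavy chain of smooth muscle myosin, a marker of mature smooth muscle. Its probe for NM_001040114 had signals of 2.85 with control siRNA and 8.27 with periostin siRNA, and its probe for NM_001040113 had 1.93 and 6.10. Neither was flagged as well above background on either array, although the 8.27 lay above 7.77, the dimmest signal that carried the flag on the periostin siRNA array. The propagated errors of the measured log2 differences were 1.02 and 1.52, so no ratio is given. The myosin that defines smooth muscle was thus not well above background in either culture, while the markers ACTA2, TAGLN and CNN1 were well above background in both.

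The tropomyosins had lower ratios than ACTA2. TPM1 encodes a tropomyosin, the coiled rod that lies along the actin filament and is spliced into many muscle and non-muscle forms. Its brightest probe (NM_001018004) went from 3691 with control siRNA to 5259 with periostin siRNA, with a log2 ratio of 0.51, and the other probes (NM_001018005 and NM_000366) gave 0.39 and 0.35. The spread of 0.16 between the probes was smaller than the error of 0.20 for each. TPM2 encodes beta-tropomyosin. Its probes (NM_213674 and NM_001301226) went, in the same order, from 95813 to 147400 and from 56198 to 87332, with log2 ratios of 0.62 and 0.64, which differed by 0.01. Probes of both genes may also take up transcripts of their near relatives, and this was not tested.

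LMOD1 encodes leiomodin, which nucleates actin filaments in smooth muscle, and it had the highest ratio of the 9. Its brighter probe (NM_012134) had a signal of 57.2 with control siRNA and 318 with periostin siRNA. It was 5.55-fold higher, a log2 ratio of 2.47 with an error of 0.21. The second probe, for the same transcript, was not well above background with control siRNA, at 4.18, and had a signal of 31.5 with periostin siRNA. Set against 7.55, the dimmest signal flagged as well above background on the control siRNA array, it was at least 4.18-fold higher. Of the measured genes, 130 had a higher ratio than LMOD1. Its signal with control siRNA lay below the 75th percentile of the array, and the ratio was 1.69, still above 3-fold, under a background correction that adds a constant of 50 to each signal.

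DES encodes desmin, the intermediate filament protein of muscle. Its probe (NM_001927) had signals of 274 with control siRNA and 313 with periostin siRNA, and the log2 ratio of 0.19 was smaller than its error of 0.20. DES therefore did not differ between the arrays beyond the error of a spot. The 9 measured genes thus spread over more than 2 log2 units, with DES, MYLK, TPM1 and TPM2 below 2-fold and the other 5 above.

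**Figure D2:**
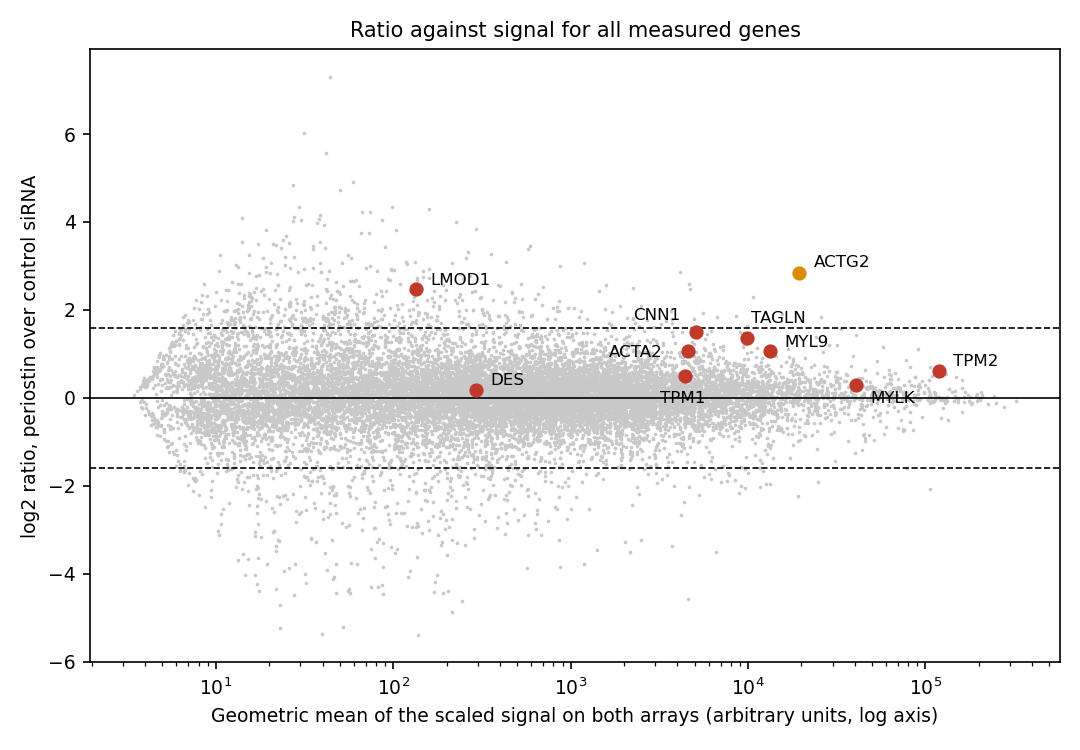
Log2 ratio of periostin siRNA over control siRNA against the geometric mean of the scaled signal on both arrays, for all 16052 measured genes (grey), the 9 measured contractile genes (red) and ACTG2 (orange), with dashed lines at 3-fold. LMOD1 lies at a low signal and above the upper dashed line, ACTA2, TAGLN, CNN1 and MYL9 lie together below that line at a high signal, and ACTG2 lies above it.

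Relatives of the same protein families, which build the cytoskeleton of non-muscle cells, were set beside the 10 genes. Of 21 such genes, 18 were measured, and none was higher or lower by more than 3-fold. Their median log2 ratio was -0.06, with 8 above 0 and 10 below, and they ran from -1.03 for CNN3 to 0.53 for MYH10, a non-muscle myosin heavy chain. The cytoplasmic actins ACTB and ACTG1 had log2 ratios of 0.08 and 0.04, and both turned below 0 when the arrays were scaled on the median, as ACTB did with the mean over its probes and ACTG1 after loess. The ratio of ACTA2 exceeded that of ACTG1 by 1.04, with an error of 0.29 for the difference. CNN3, a calponin of non-muscle cells, had signals of 4416 with control siRNA and 2160 with periostin siRNA, so its ratio of -1.03 lay 2.53 below that of CNN1.

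The other families with a measured gene of the set were ordered in the same way, with the genes named here chosen after their values were seen. The myosin heavy chains could not be compared, since MYH11 had no ratio. Their non-muscle genes MYH9, MYH10 and MYH14 were at 0.49, 0.53 and 0.45. TAGLN2 was at -0.10 and TAGLN3 at -0.17, 1.47 and 1.54 below TAGLN. For the regulatory light chains, MYL12A gave 0.17 and MYL12B 0.34, which were 0.91 and 0.74 below MYL9. Among the tropomyosins, TPM3 had a ratio of -0.57 by its brightest probe and 0.41 by its dimmest, and TPM4 one of -0.01, which turned above 0 without scaling, after quantile normalization and under the normexp correction. The tropomodulins, which cap the slow-growing end of actin filaments and are related to leiomodin, gave -0.93 for TMOD1, -0.41 for TMOD2 and -0.53 for TMOD3. The intermediate filament genes VIM and NES were at -0.12 and -0.24, and the ratio of DES exceeded that of VIM by 0.31, close to the error of that difference, 0.29. Since relatives are alike in sequence, a probe of 1 gene may take up signal of another.

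**Figure D3:**
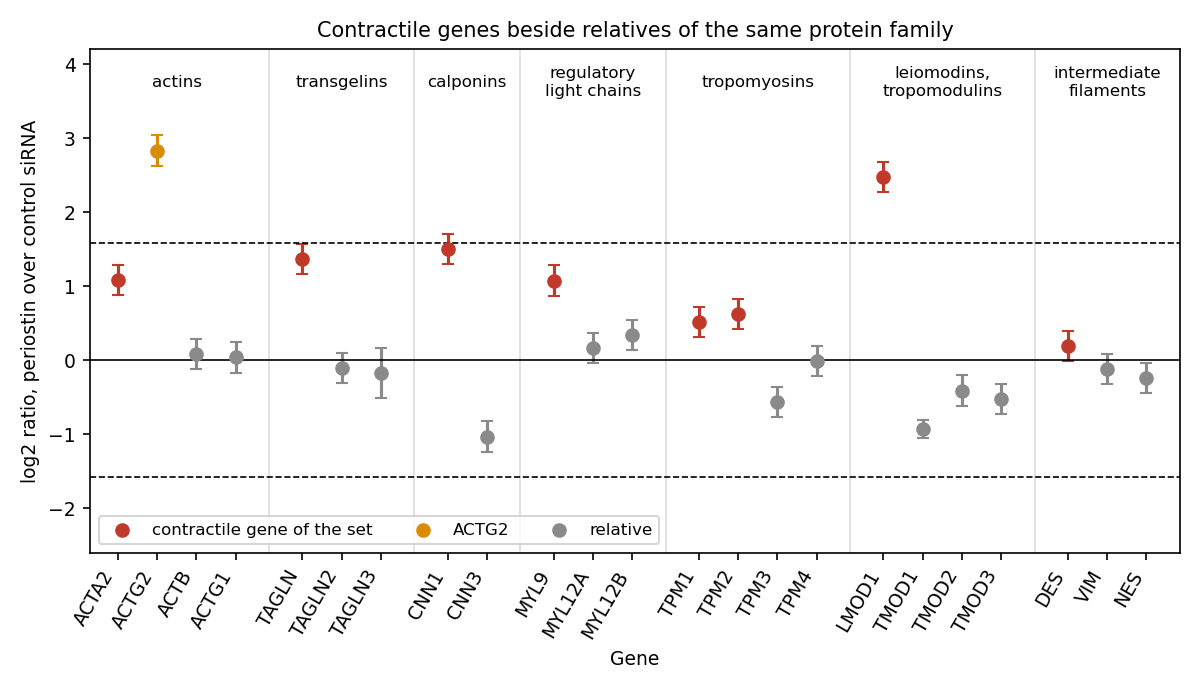
Log2 ratio of periostin siRNA over control siRNA for the contractile genes (red), their family relatives (grey) and ACTG2 (orange), grouped by protein family, with bars for the spot error or the SD over spots and dashed lines at 3-fold. In each family shown the red point lies above the grey points, by the widest span in leiomodin and the tropomodulins and by the narrowest in the intermediate filaments. The myosin heavy chains are not shown, since MYH11 had no ratio.

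A longer list of 27 genes of the contractile apparatus, its anchors and other muscle genes was described next, and 24 of them were measured. Of these, 5 were higher by more than 3-fold and none was lower, where 3.37% and 2.75% of all measured genes were. Above 0 lay 21 of the 24, compared with 54.5% of all measured genes, and the median log2 ratio was 0.34. ACTG2 had signals of 7266 with control siRNA and 51724 with periostin siRNA. It was 7.12-fold higher, a log2 ratio of 2.83 with an error of 0.20. Its product is nearly identical to that of ACTA2, so that signal shared between the probes of these actins cannot be told apart here. SYNPO2, which encodes the actin-bundling protein synaptopodin-2, had signals of 28.4 and 105, a log2 ratio of 1.89, while its second probe was below background on both arrays.

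The remaining genes past 3-fold have roles in striated muscle or in muscle protein turnover. HSPB7, a small heat shock protein of heart muscle, went from a signal of 17.9 on the control siRNA array to 239 on the other, a log2 ratio of 3.74 ± 0.75 (SD, n = 10 spots), and 2 of its spots carried an outlier flag. CASQ2, the calcium-binding calsequestrin of the heart, was not well above background with control siRNA and had a signal of 128 with periostin siRNA, which was at least 17.0-fold higher. FBXO32, which encodes the ubiquitin ligase subunit atrogin-1, went from 400 to 1830, a log2 ratio of 2.20. Under the normexp correction, which lifts dim signals, 3 of the 24 genes were above 3-fold, with HSPB7 at 1.90, and SYNPO2 and CASQ2 were at 1.01 and 1.31.

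Most genes of this list lay nearer to 0. The stress fiber and focal adhesion genes CALD1, FLNA, ACTN1, VCL and ZYX gave log2 ratios of 0.24, 0.31, 0.29, 0.55 and 0.28, named after their values were seen. SYNM, which encodes the intermediate filament protein synemin, had the lowest ratio, -0.76, with signals of 411 and 243. The cardiac actin ACTC1, the skeletal actin ACTA1 and phospholamban, PLN, were not well above background on either array. In promoter entries of this list, a full CArG box was found in 8 of 50, or 16.0%, and in those of the relatives in 3 of 32, or 9.38%, compared with 1.16% of all entries.

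**Figure D4:**
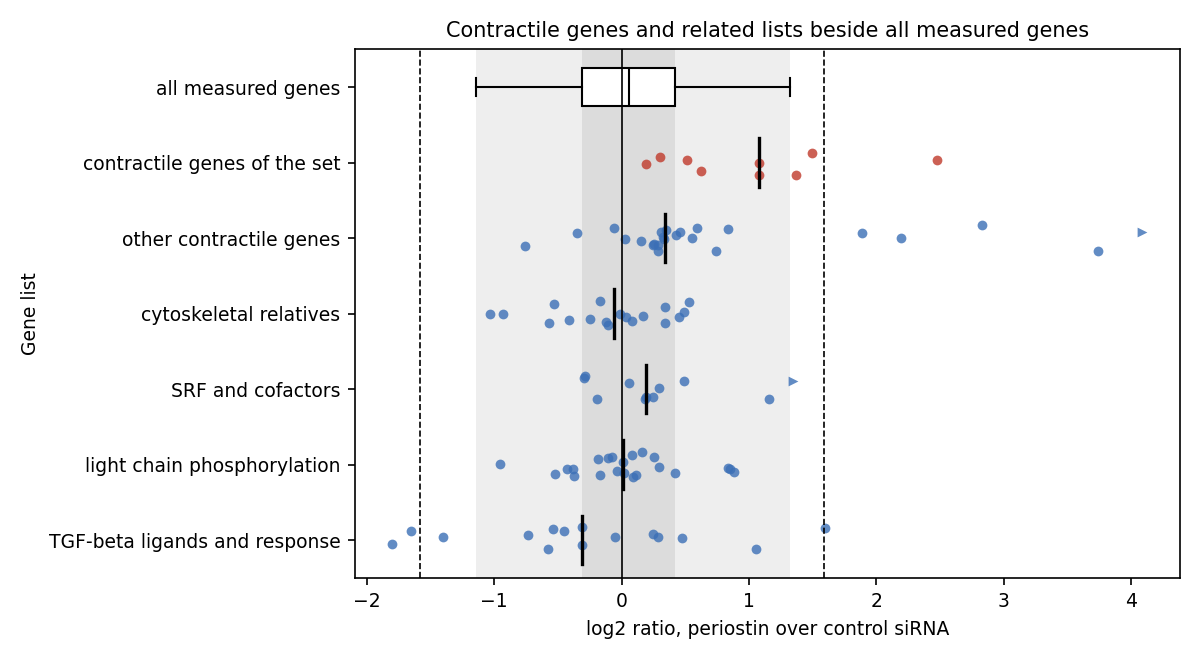
Log2 ratio of periostin siRNA over control siRNA for each measured gene of the contractile set (red) and of 5 related lists (blue), with black bars at the medians, triangles for lower bounds and dashed lines at 3-fold. The box and the grey bands show the middle of all 16052 measured genes, the whiskers reach from their 5th to their 95th percentile, and the set's median of 1.08 lies to the right of the medians of the other lists.

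Serum response factor and its cofactors were examined as a list. SRF itself had signals of 111 with control siRNA and 131 with periostin siRNA, and its log2 ratio of 0.24 was close to the error of 0.21. MRTFA and MRTFB, its actin-regulated cofactors, gave 0.49 and 0.19. MYOCD, which encodes myocardin, was not well above background with control siRNA, at 8.33, and had a signal of 21.1 with periostin siRNA, at least 2.53-fold higher, a log2 value of 1.34 that was 0.24 under the normexp correction. The second MYOCD probe was below background on both arrays. Of 12 genes in this list 11 were measured, none passed 3-fold in either direction, and the median was 0.19. FHL2, which encodes a LIM-domain cofactor, went from 6259 to 13993, a log2 ratio of 1.16 ± 0.05 (SD, n = 10 spots), and ELK1 had the lowest ratio, -0.30.

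Genes that set the phosphorylation of the light chain, such as RHOA, the ROCK kinases and the subunits of myosin phosphatase, were listed apart. The list also held the cofilin gene CFL1 and the kinases LIMK1 and LIMK2, which act on cofilin rather than on the light chain. Of these 24 genes 22 were measured, none passed 3-fold in either direction, and the median of 0.01 turned to -0.11 when the arrays were scaled on the median. LIMK2, a kinase that inactivates cofilin, had the highest ratio, 0.88, with signals of 821 and 1511. PPP1R14B, an inhibitor of myosin phosphatase, had the lowest, -0.96, with signals of 27535 and 14177. Its second probe gave -1.27, with signals of 18210 and 7545.

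TGF-β, which induces the contractile genes in fibroblasts, was represented by 15 ligands, receptors and response genes. All 15 were measured, and their median was -0.31 on the log2 scale. The ligands TGFB1, TGFB2 and TGFB3 gave -0.58, 1.59 and 1.06, and TGFB3, with signals of 19.0 and 39.7, was at 0.31 under the normexp correction. TGFB2, at 3.02-fold, was the 1 gene of the list that was higher by more than 3-fold, and it was below 3-fold under 4 other ways of correcting or scaling the signals. COL4A1, a basement membrane collagen, was lower by more than 3-fold, with a log2 ratio of -1.80.

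The check of the targeted gene and of the cells bears on the values above. POSTN had signals of 2638 with control siRNA and 280 with periostin siRNA, and its log2 ratio was -3.24 with an error of 0.20. GAPDH was at 0.04. The proliferation genes MKI67 and TOP2A were lower, at -2.03 and -4.24, or -1.04 and -2.46 under the normexp correction. All 11 fibroblast markers, among them COL1A2, DCN and VIM, were well above background on both arrays, with a median ratio of -0.09. Of 8 markers of pericytes and vascular smooth muscle, 4 were well above background on both arrays, and RGS5 had the highest ratio, 0.98, while KCNJ8, ABCC9 and HIGD1B were below background and the summed signals were 10182 with control siRNA and 9549 with periostin siRNA. Of 5 epithelial markers, EPCAM, KRT19 and SFTPC were well above background on both arrays, with log2 ratios of 1.97, 1.04 and 0.66, CDH1 and KRT5 were below it, and the summed signal of the list was 239 and 537. The summed signal of the 9 markers of skeletal and heart muscle that could be named was 78.3 and 89.1, of 4 endothelial markers 133 and 130, with PECAM1 below background, and of 5 immune markers 3195 and 4428, mostly from CD68 and CD79A, with PTPRC at 17.6 and 25.1. The part of these markers in the higher contractile signals was not tested.

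**Figure D5:**
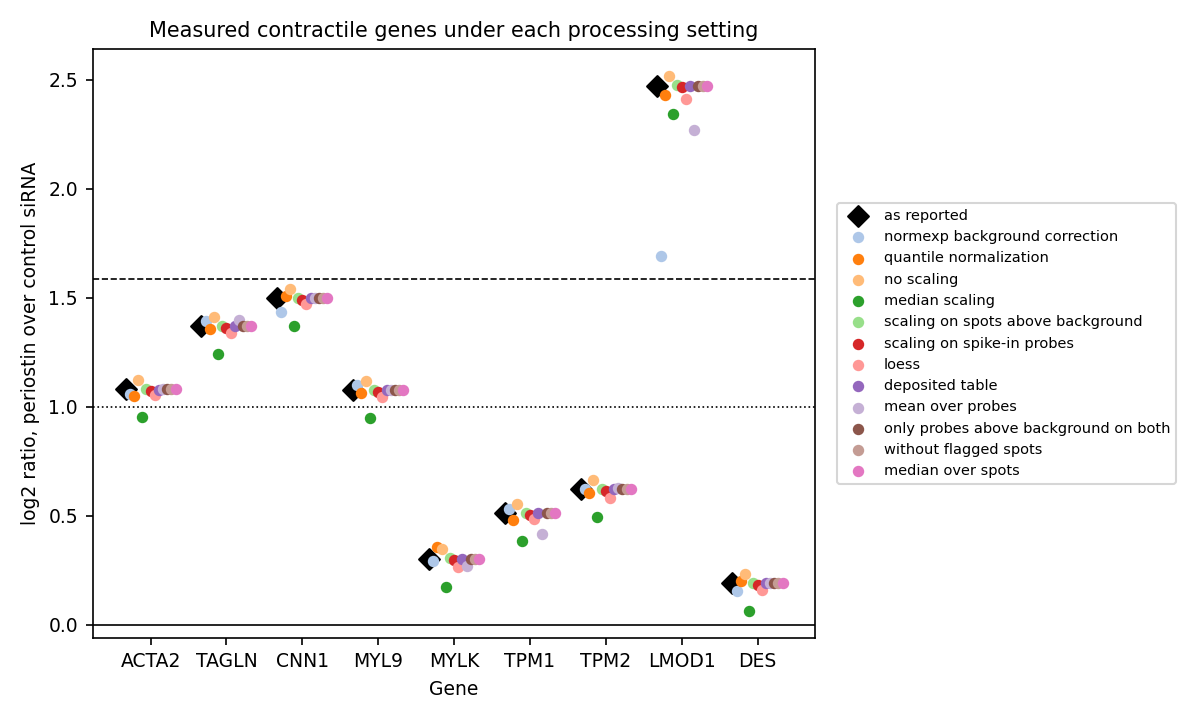
Log2 ratio of periostin siRNA over control siRNA for the 9 measured contractile genes as reported (black diamonds) and under 12 other ways of correcting, scaling or averaging the signals (coloured points), with a dotted line at 2-fold and a dashed line at 3-fold. Every point lies above 0, and the points of each gene lie close together except for LMOD1 under the normexp correction, at 1.69.

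The 9 measured genes kept a ratio above 0 under all 12 settings. Scaling on the median lowered ACTA2 to 0.95 and MYL9 to 0.95, so that 3 genes in place of 5 were higher by more than 2-fold, and it brought DES to 0.06.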

How the data were processed

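RNA of MRC-5 cells with control siRNA or periostin siRNA was labelled with Cy3 and hybridized to 1 array each. The authors deposited the scanner output, made with Feature Extraction 11.5.1.1 per the file headers (the submitters' processing notes name 12.0.3.1), with intensity values that the program had corrected for background but not scaled between arrays, and a table of intensity values that equalled them, for every spot of a probe printed once and within 0.1%, times a constant of 3.65 (control siRNA) or 3.54 (periostin siRNA). The array was annotated on hg19.

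Each processed signal was divided by its array's 75th percentile over the 58717 spots that are not controls (372 and 383) and taken to log2. Spots of a probe were averaged, and the brightest probe stood for a gene. A probe well above background on 1 array alone gave a bound, and a probe below it on both gave no ratio. The signal was well above background for 58.0% and 58.9% of spots, no spot was saturated, and 65.1% of spots were named through RefSeq. Promoter sequences are those of RefSeq on GRCh38.p14.

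The 10 genes and the related lists were chosen with earlier results of these data known. Named were all 10, the genes of each list past 3-fold or with its lowest and highest ratio, SRF and its cofactors, and the TGF-β ligands, and some values of single genes in the lists are not reported here. Python 3.11.15 (numpy 2.4.6, pandas 2.3.3) and limma 3.58.1 under R 4.3.3 were used, and the calls were checked on simulated data. Alternatives were normexp with an offset of 50, quantile normalization, loess with a span of 0.3, other scalings, the deposited table, other summaries of spots and probes, and thresholds of 2-fold and 4-fold.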

Additional observations from a re-analysis of the deposited data

How the results depend on the processing

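No paired analysis was possible because there was a single array for either condition, and no replicate could be left out. The 9 measured contractile genes kept their direction under all 12 settings, and the count past 3-fold stayed at 1. At 2-fold 5 passed, or 3 under median scaling, where ACTA2 and MYL9 were at 0.95. Under the normexp correction POSTN was at -2.99, and of the TGF-β list 0 were higher and 1 was lower. In the longer list outside the set, 3 genes (ACTG2, HSPB7 and FBXO32) were then higher by more than 3-fold, in place of 5. The TGF-β list also had 0 higher genes under quantile normalization, median scaling, loess and at 4-fold, where 0 were lower, and 2 higher at 2-fold. At 2-fold 1 cytoskeletal relative was lower and 2 genes of the SRF list were higher. Median scaling moved the median of all genes by -0.13, and the medians of the contractile set to 0.95, of the other contractile genes to 0.21, of the relatives to -0.19, of the SRF list to 0.060, of the light chain list to -0.11 and of the TGF-β list to -0.44. Of all genes past 3-fold, 55.1% were higher, compared with 42.9% under the normexp correction and 46.3% under median scaling. The normexp correction called 143 genes higher and 190 lower, in place of 541 and 441. At 4-fold 278 were higher and 274 lower, and at 2-fold 1279 were higher and 1031 lower. Neither MYH11 probe gave a ratio under any setting. Dim probes such as those of LMOD1 and MYOCD are limited by their signal over background.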
